A study of Arabidopsis thaliana with 4 samples.

Results

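The genes described here encode the enzymes that remove reactive oxygen species in Arabidopsis thaliana and the NADPH oxidases that make them. They were chosen by locus from a fixed list: ascorbate peroxidases, catalases, superoxide dismutases with their copper chaperone, the ascorbate-glutathione cycle, glutathione peroxidases, peroxiredoxins, the ascorbate synthesis genes VTC2 and VTC5, and RBOH genes. All 49 genes had a probe among the 25665 loci on the array, and 45 of them were among the 19314 genes tested. The genotypes compared were a double mutant of hsfb1 and hsfb2b and its wild type, both of the Columbia-0 ecotype. The labels do not name the mutant alleles. Both genotypes were taken at an age of 5 d after growth at 23 °C in 16 h light and 8 h dark on medium with 2% sucrose, and the plates were then heated under water at 32 °C for 30 min. No unheated seedlings were compared, so every value is a genotype difference in heated seedlings. Each of the 4 two-colour arrays carried RNA of both genotypes from a single plate of many plants, and the labels call the 4 arrays biological replicates. Mutant RNA carried Cy3 on arrays 1 and 3, and Cy5 on arrays 2 and 4.

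Superoxide dismutases turn superoxide into hydrogen peroxide. Catalases and peroxidases then remove the peroxide. Ascorbate peroxidases do so with ascorbate, which monodehydroascorbate reductases (MDAR), dehydroascorbate reductases (DHAR) and glutathione reductases (GR) return to its reduced form, and separate isoforms of these enzymes work in the chloroplast, the cytosol and the peroxisome. NADPH oxidases (RBOH) span the plasma membrane and release superoxide outside the cell as a signal. HSFB1 and HSFB2B are class B heat shock factors, known as repressors of transcription, and some of the enzymes, APX2 above all, are known targets of the activating class A factors during heat.

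Ratios are given as log2 of mutant over wild type, so 0 means equal signal and a positive value means more signal in the mutant. A gene was called higher or lower where its adjusted p from limma, a linear model fitted to every gene with a term for the dye, was under 0.05. Of all 19314 genes tested, 29.8% were called, 16.6% as higher and 13.1% as lower. HSFB1 had a ratio of -5.79 and HSFB2B of -4.68, with the array nearest to 0 at -4.38, so both mutated genes were low in the mutant RNA. A dye effect passed the same threshold for 18.1% of all genes and for 8 of the 45 tested genes of the list. Among markers of the tissues that a seedling holds, 5 of 6 root markers were higher (EXPA7 0.52, CASP1 0.48, COBL9 0.48, EXPA18 0.35 and PIN2 0.18), while NRT2.1 stood at -0.02. The summed signal of the 6 root markers ranged from 6423 to 8559 units in the mutant and from 4709 to 6555 in the wild type. That of the 4 shoot markers with a ratio on every array ranged from 308100 to 488800 units in the mutant and from 358900 to 561700 in the wild type. Of 5 shoot markers, LHCB1.1 (-0.27) and RCA (-0.15) were lower, LHCB2.1 (0.28) was higher, and RBCS1A (-0.13) and CA1 (-0.04) were not called. These 3 called shoot markers also carried dye effects, and LHCB1.1 ran from -1.27 on array 1 to 0.63 on array 2. Of 4 seed markers, CRU3 and SESA1 were not well above background and the other two were not called. RNA came from whole seedlings, in which fewer cells of a type and less RNA per cell cannot be told apart.

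Antioxidant genes went both ways in the mutant. Of the 45 tested, 10 were higher, 12 were lower and 23 were not called, which is 48.89% called where all genes gave 29.8%, with 22.22% higher and 26.67% lower. The ratios were small. They ran from -0.26 to 0.47, their median was -0.03, and the median absolute ratio was 0.10 where all genes had 0.07. On 42 genes all 4 arrays gave a ratio. All 4 ratios were above 0 for 10 of them (23.81%, against 19.0% of all genes with 4 ratios) and below 0 for 9 (21.43%, against 16.3%). CAT1 and GPX4 were not tested because neither probe was well above background on all arrays of a genotype. PRXQ and VTC2 were not tested because outlier marks left only 2 ratios each.

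**Figure D1:**
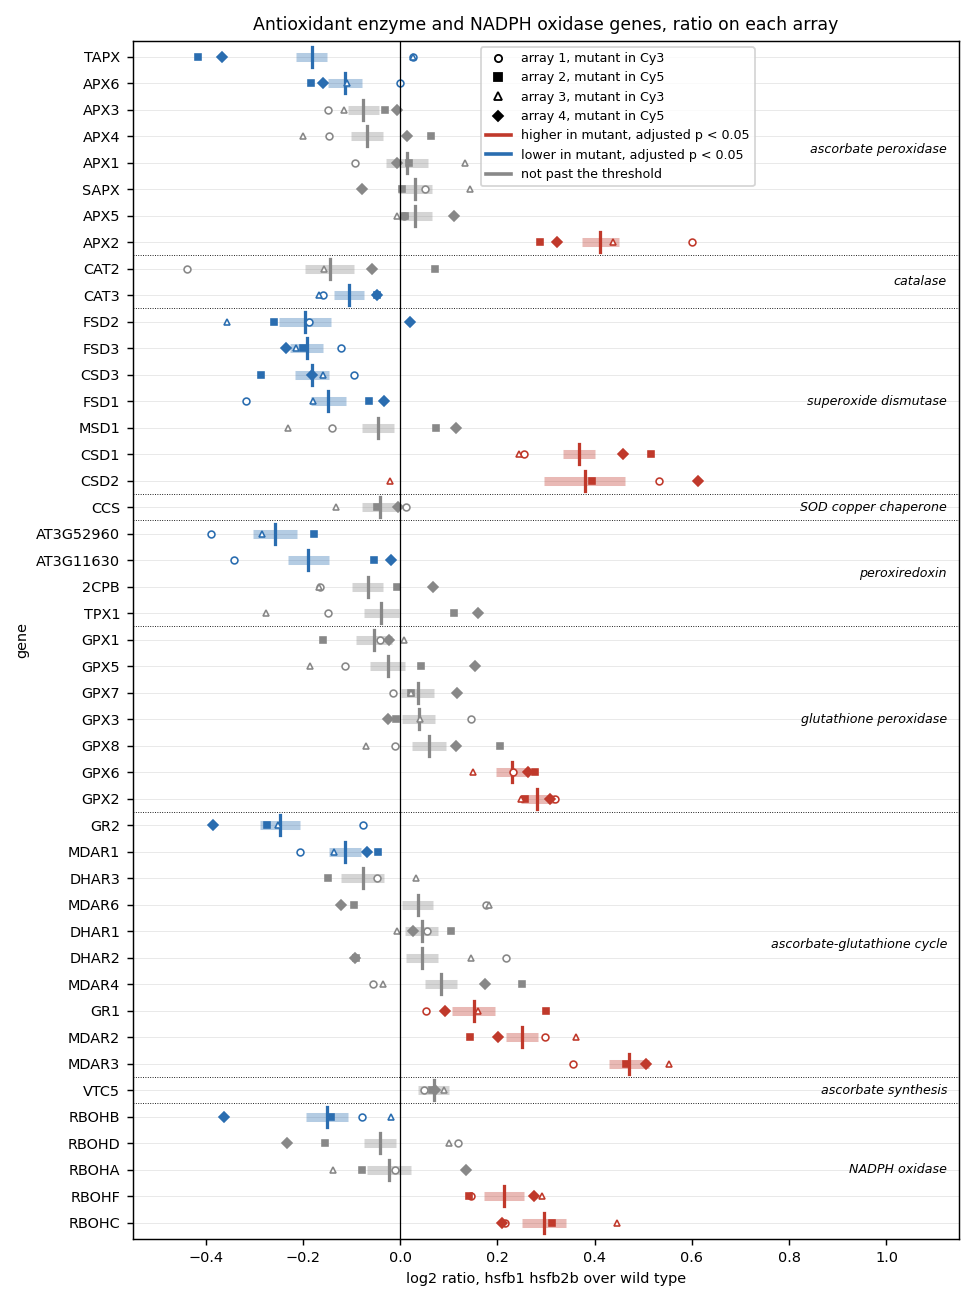
Log2 ratio of mutant over wild type (x axis) for the 45 tested genes, grouped by enzyme family. Points are single arrays, open where the mutant was in Cy3 and filled where it was in Cy5, the vertical tick is the fitted ratio and the bar its standard error. MDAR3 at 0.47, APX2 at 0.41, CSD2 at 0.38 and CSD1 at 0.37 stand furthest to the right, and AT3G52960 at -0.26 and GR2 at -0.25 furthest to the left.

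Grouped by the compartment in which the proteins work, the calls were mostly higher in the cytosol and lower in the chloroplast. Over all genes tested, 16.6% were higher and 13.1% lower. Of 13 tested genes for cytosolic enzymes, 6 (46.15%) were higher (MDAR3, APX2, CSD1, GPX2, MDAR2 and GR1) and APX6 (7.69%) was lower. Of 15 tested genes for chloroplast enzymes, 7 (46.67%) were lower (AT3G52960, GR2, FSD2, FSD3, AT3G11630, TAPX and FSD1) and CSD2 (6.67%) was higher. None of the 7 tested genes listed as peroxisomal was higher, and CSD3, MDAR1 and CAT3 were lower (42.86%). GR1, whose protein is both cytosolic and peroxisomal and which was higher, was counted in the cytosol only. Of the genes for 5 plasma membrane oxidases, RBOHC and RBOHF were higher (40%) and RBOHB was lower (20%). MSD1, the only one with a purely mitochondrial enzyme, was not called at -0.05, and of the 4 genes whose proteins are placed in several compartments GPX6 was higher.

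The median ratio was 0.07 for the cytosolic list, -0.08 for the chloroplast list and -0.10 for the peroxisomal list, with the median of all genes at 0.00065. For the cytosolic list the array medians were 0.05, 0.14, 0.15 and 0.11 on arrays 1 to 4, and for the chloroplast list they were -0.08, -0.10, -0.09 and -0.02. The cytosolic median thus lay above the chloroplast median on every array, by 0.13, 0.24, 0.24 and 0.14, a mean of 0.19 ± 0.06 (SD, n = 4 arrays). The peroxisomal list was below 0 on every array as well, at -0.15, -0.03, -0.14 and -0.05. The plasma membrane medians changed sign, from 0.12, 0.10 and 0.13 on arrays 1, 3 and 4 to -0.08 on array 2. These medians are descriptions and carry no test, since the genes of a list are not replicates. The count of lower chloroplast genes fell from 7 to 2 in the deposited series values and to 4 in Feature Extraction's processed signals. Over the whole array, 79.9% of calls were higher in the series values and 50.5% in the processed signals, against 55.8% as reported. The gap between the cytosolic and chloroplast medians stayed between 0.13 and 0.22 in every processing tried. Root markers were higher and shoot markers mixed in the same RNA, and their part in this pattern was not tested.

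**Figure D2:**
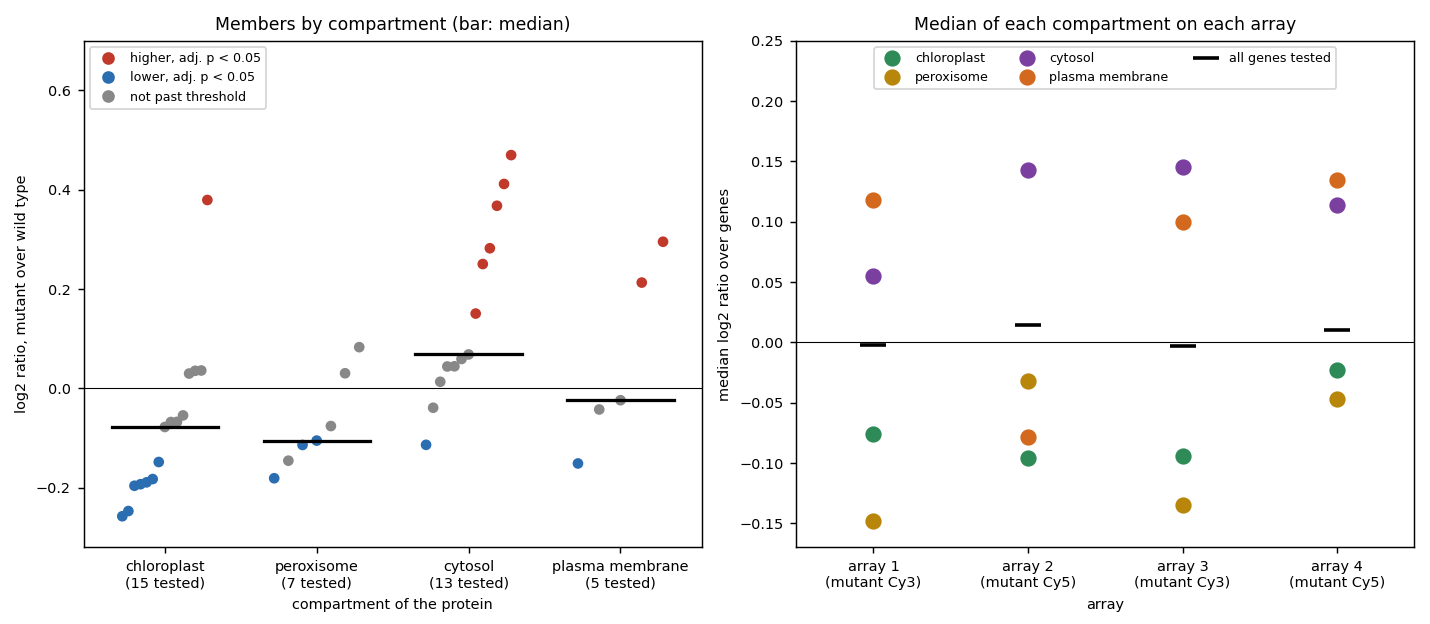
Left, log2 ratio of each tested gene by the compartment of its protein, with colour for the call and a bar at the median. Right, median log2 ratio of each compartment on each array, with the dye of the mutant under the array number and a dash at the median of all genes tested. The cytosolic median is above the chloroplast median on all 4 arrays, by 0.13 to 0.24.

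Superoxide dismutases were the family with most calls, 6 of 7 (85.71%, against 29.8% of all genes). The genes for the copper-zinc enzymes of the cytosol and the chloroplast were higher. Those for the peroxisomal copper-zinc enzyme and all 3 iron enzymes were lower. CSD1 (AT1G08830), for the cytosolic copper-zinc enzyme, had ratios of 0.25, 0.52, 0.24 and 0.46 on arrays 1 to 4. All arrays were positive, and the normalised log2 signals of the genotypes did not overlap, at 11.54 to 11.80 in the mutant and 11.08 to 11.45 in the wild type. A dye effect was called (limma adjusted p = 0.044), with means of 0.25 over the Cy3 arrays and 0.49 over the Cy5 arrays of the mutant. The fitted ratio was 0.37 ± 0.03 (SE, n = 4), a 1.29-fold higher signal (limma adjusted p = 0.000329).

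CSD2 (AT2G28190), for its chloroplast counterpart, had ratios of 0.53, 0.39, -0.02 and 0.61. Array 3 stood near 0 while the other three were high, and the signals of the genotypes overlapped. The ratio was 0.38 ± 0.08 (SE, n = 4; limma adjusted p = 0.0137), and it was 0.24 without array 1. The call was lost in Feature Extraction's processed signals (0.35, limma adjusted p = 0.12), in the deposited series values and in the fit without a dye term. Transcripts of CSD1, CSD2 and the chaperone gene CCS are known targets of the microRNA miR398. CCS (AT1G12520), which loads copper into these enzymes, was not called. Its ratios were 0.01, -0.05, -0.13 and -0.0039, with a fitted value of -0.04 ± 0.04 (SE, n = 4; limma adjusted p = 0.42). CSD1 exceeded CCS on every array, by 0.24, 0.56, 0.38 and 0.46.

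CSD3 (AT5G18100), for the peroxisomal enzyme, had a ratio of -0.18 (limma adjusted p = 0.0086) and lay below CSD1 on every array, by 0.55 ± 0.21 (SD, n = 4). The CSD3 call was lost in 4 of 14 alternatives, among them the deposited series values (-0.11) and the fit without array 3 (limma adjusted p = 0.075). Among the chloroplast iron enzymes, FSD2 and FSD3 are known to serve the chloroplast nucleoid. FSD2 (AT5G51100) had ratios of -0.19, -0.26, -0.36 and 0.02. Arrays 1 to 3 were low and array 4 was not, and the fitted ratio was -0.20 ± 0.05 (SE, n = 4; limma adjusted p = 0.0289). The FSD2 call was lost in 8 of 14 alternatives, among them the fits without array 1, 2 or 3, at -0.24, -0.13 and -0.15. FSD3 (AT5G23310) was lower on every array, between -0.12 and -0.24, with genotype signals that did not overlap (-0.19, limma adjusted p = 0.0058). The FSD3 call was lost in 3 of 14 alternatives, among them the deposited series values (-0.13) and the fit without array 3 (limma adjusted p = 0.058). FSD1 (AT4G25100), for the main iron enzyme of the plastid, was also negative on every array, with a ratio of -0.15 (limma adjusted p = 0.0209). Its call was lost in 5 of 14 alternatives, among them the fit without array 1 (-0.11, limma adjusted p = 0.13) and the deposited series values (-0.046). The mitochondrial manganese enzyme gene MSD1 (AT3G10920) was positive on the arrays with the mutant in Cy5 (0.07 and 0.11) and negative on those with it in Cy3 (-0.14 and -0.23).

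A list on copper supply was set beside the superoxide dismutases, and a link between them was not tested. Of its 5 genes, 2 were lower (40%, against 13.1% of all genes) and none was higher. COPT1, a high-affinity copper transporter of the plasma membrane, had ratios of -0.29, -0.44, -0.46 and -0.34, all low (-0.38, limma adjusted p = 0.00068). COPT2, another transporter of that family, had -0.44, -0.31, -0.30 and -0.15, also low on every array (-0.30, limma adjusted p = 0.0022). Both calls were kept in all 14 alternative processings. CCH, a copper chaperone, and SPL7, the transcription factor of the response to copper shortage, were not called. Nor was AT3G15640, which was placed in this list but encodes a cytochrome c oxidase subunit. All of these lay between -0.07 and 0.06.

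**Figure D3:**
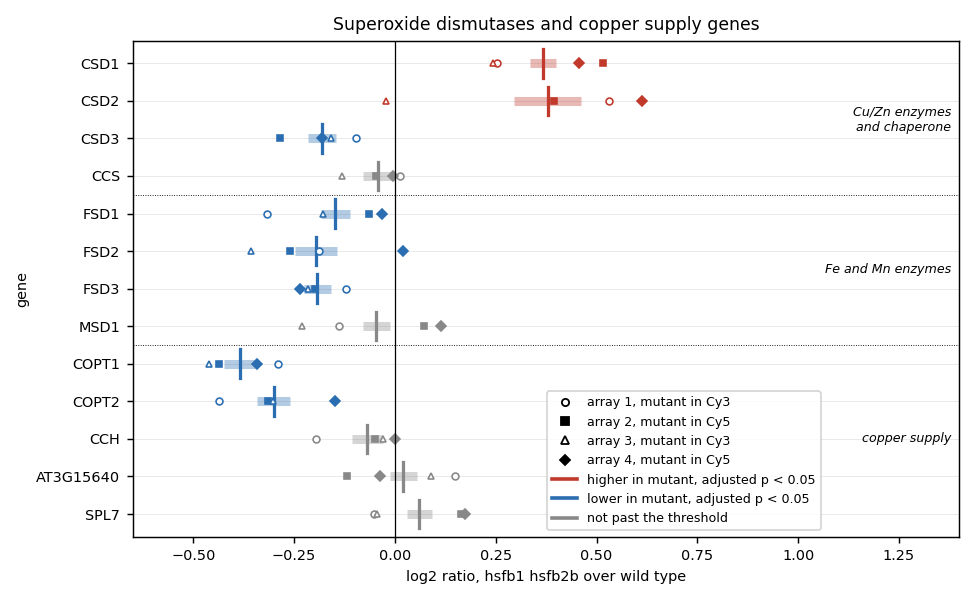
Log2 ratio of mutant over wild type (x axis) for superoxide dismutases, their copper chaperone CCS and the 5 genes of the copper supply list. Points are single arrays, open for the mutant in Cy3 and filled for Cy5, and ticks and bars are the fitted ratio and its standard error. CSD1 (0.37) and CSD2 (0.38) lie to the right of 0, and COPT1 (-0.38), COPT2 (-0.30), CSD3 and the 3 FSD genes to its left.

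Of 8 ascorbate peroxidase genes, 1 was higher and 2 were lower, a share of 37.5% called where all genes gave 29.8%. APX2 (AT3G09640), for the heat-induced cytosolic enzyme, had ratios of 0.60, 0.29, 0.44 and 0.32. All arrays were positive, and array 1 was highest, although the range of mutant signals (11.84 to 12.17) overlapped that of the wild type (11.24 to 11.88). The ratio was 0.41 ± 0.04 (SE, n = 4), 1.33-fold (limma adjusted p = 0.000403), and the call was kept in all 14 alternatives. APX1 (AT1G07890), for the abundant cytosolic enzyme, had ratios of -0.09, 0.02, 0.13 and -0.01. These scattered around 0 (0.01 ± 0.04, SE, n = 4; limma adjusted p = 0.84). APX2 lay above APX1 on every array, by 0.69, 0.27, 0.30 and 0.33.

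TAPX (AT1G77490), for the thylakoid membrane enzyme, had ratios of 0.03, -0.41, 0.03 and -0.37. Its mean was 0.03 over the Cy3 arrays and -0.39 over the Cy5 arrays of the mutant, and a dye effect was called (limma adjusted p = 0.0103). That effect cancels in the fitted genotype ratio of -0.18, which was called lower (limma adjusted p = 0.0057), and 3 of 14 alternatives ended the call. APX6 (AT4G32320) was called lower at -0.11 (limma adjusted p = 0.0437), with 10 of 14 alternatives ending the call. The remaining genes, for the peroxisomal APX3 and APX5, the stromal SAPX and the thylakoid lumen protein APX4, lay between -0.08 and 0.03.

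Catalases break down peroxide in peroxisomes. CAT2 (AT4G35090), for the main leaf isoform, which works in photorespiration, had ratios of -0.44, 0.07, -0.16 and -0.06. Array 1 was lowest, array 3 was also low, and the other two lay near 0. The fitted -0.15 ± 0.05 (SE, n = 4) was not called (limma adjusted p = 0.0685). It was called at -0.27 with median centring in place of loess, and at -0.18 and -0.22 without array 2 and without array 3. Without array 1 it was -0.075 (limma adjusted p = 0.33), and in the deposited series values it was -0.055. CAT3 (AT1G20620), for a catalase under clock control, was called lower at -0.10 (limma adjusted p = 0.041), and 10 of 14 alternatives ended that call. Its other probe, which was dim, gave -0.05.

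In the ascorbate-glutathione cycle 3 of 10 tested genes were higher and 2 were lower, 50% called where all genes gave 29.8%. MDAR3 (AT3G09940) and MDAR2 (AT5G03630), for cytosolic reductases of the ascorbate radical, were both higher. MDAR3 had the largest ratio of the whole list, with 0.36, 0.46, 0.55 and 0.51 on arrays 1 to 4. All arrays were clearly positive (0.47 ± 0.04, SE, n = 4, 1.38-fold; limma adjusted p = 0.00032). The gene is dim, at 9.39 to 9.92 log2 units in the mutant and 8.88 to 9.46 in the wild type, and its ratio was 0.72 in the deposited series values. MDAR2 had ratios of 0.30, 0.14, 0.36 and 0.20, again all positive (0.25 ± 0.03, SE, n = 4; limma adjusted p = 0.0018). Median centring lowered it to 0.16 and ended the call.

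Genes for the peroxisomal and plastid reductases of this kind had ratios below those of MDAR2 and MDAR3, on either side of 0. MDAR1 (AT3G52880), whose protein works in peroxisomes, was called lower at -0.11 (limma adjusted p = 0.0364), a call lost in 10 of 14 alternatives. MDAR4, for the enzyme of the peroxisomal membrane, was at 0.08 and MDAR6, for that of chloroplasts and mitochondria, at 0.04, and neither was called. Both had a called dye effect (limma adjusted p = 0.037 and 0.024).

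The glutathione reductase genes moved in opposite directions. GR1 (AT3G24170), for the cytosolic and peroxisomal enzyme, had ratios of 0.05, 0.30, 0.16 and 0.09 (0.15 ± 0.04, SE, n = 4; limma adjusted p = 0.0366), and 8 of 14 alternatives ended its call. GR2 (AT3G54660), for the enzyme of chloroplasts and mitochondria, had -0.08, -0.27, -0.25 and -0.39. Every array was low, and mutant signals of 12.33 to 12.47 lay below the wild-type signals of 12.55 to 12.75. The ratio was -0.25 ± 0.04 (SE, n = 4), or 1.19-fold lower (limma adjusted p = 0.0047), and was called in all 14 alternatives. GR1 exceeded GR2 by 0.13, 0.57, 0.41 and 0.48 on arrays 1 to 4, a mean of 0.40 ± 0.19 (SD, n = 4). Other pairs of a cytosolic and a plastid enzyme gene differed in this. MDAR2 lay above MDAR6 and GPX2 above GPX1 on every array, while the pairs of CSD1 with CSD2 and of DHAR1 with DHAR3 did not keep 1 sign. CSD1 minus CSD2 was -0.28, 0.12, 0.27 and -0.16 on arrays 1 to 4, a mean of -0.01. DHAR1 minus DHAR3 was 0.10, 0.25 and -0.04 on arrays 1 to 3. Among dehydroascorbate reductase genes, cytosolic DHAR1 and DHAR2 were both at 0.04, plastid DHAR3 was at -0.08 over 3 arrays, and none was called.

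Glutathione peroxidases, which in plants draw their electrons mostly from thioredoxin, gave 2 higher and no lower calls among 7 tested genes, a share of 28.57% called that is close to the 29.8% of all genes. GPX2 (AT2G31570), for a cytosolic enzyme, had ratios of 0.32, 0.26, 0.25 and 0.31. The arrays were close together in both dye orientations (0.28 ± 0.03, SE, n = 4; limma adjusted p = 0.0011). GPX6 (AT4G11600), whose protein is placed in the cytosol and mitochondria, had 0.23, 0.28, 0.15 and 0.26, also all positive (0.23 ± 0.03, SE, n = 4; limma adjusted p = 0.0026). Median centring ended both calls, at 0.18 and 0.13. GPX1, GPX3, GPX5, GPX7 and GPX8 lay between -0.05 and 0.06.

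Peroxiredoxins reduce peroxides with thiols. All 4 tested genes had fitted ratios below 0, as did 9604 of all 19314 genes. The 2 called, both plastid, make 50%, where all genes gave 29.8%. The family median was -0.27 over the Cy3 arrays of the mutant and -0.0029 over its Cy5 arrays. AT3G52960 had ratios of -0.39, -0.18 and -0.28 on arrays 1 to 3, and its array 4 ratio was left out as an outlier. All 3 were low, and signals did not overlap, at 14.39 to 14.47 in the mutant and 14.65 to 14.78 in the wild type (-0.26 ± 0.04, SE, n = 3; limma adjusted p = 0.00796). The call was lost in the deposited series values, at -0.14, and in those values once centred, at -0.22. AT3G11630 was measured on 3 arrays, at -0.34, -0.05 and -0.02 on arrays 1, 2 and 4, and was lowest on array 1. Its fitted ratio was -0.19 (limma adjusted p = 0.0178). Array 1 was the only one of these with the mutant in Cy3 and so weighed most in that fit. Without a dye term the ratio was -0.14 and was not called. With outlier-marked spots kept, array 3 stood at -0.18 and the gene was called at -0.15, while 5 alternatives ended the call. Its plastid relative 2CPB (AT5G06290) was at -0.07 and the cytosolic TPX1 (AT1G65980) at -0.04, neither called. TPX1 had a called dye effect (limma adjusted p = 0.0208), with ratios of -0.15, 0.11, -0.28 and 0.16. PRXQ had no value of its own here, but with outlier-marked spots kept it was called at -0.15. Cross-hybridisation between near-identical copies in this family could not be checked, since probe sequences were not used here.

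**Figure D4:**
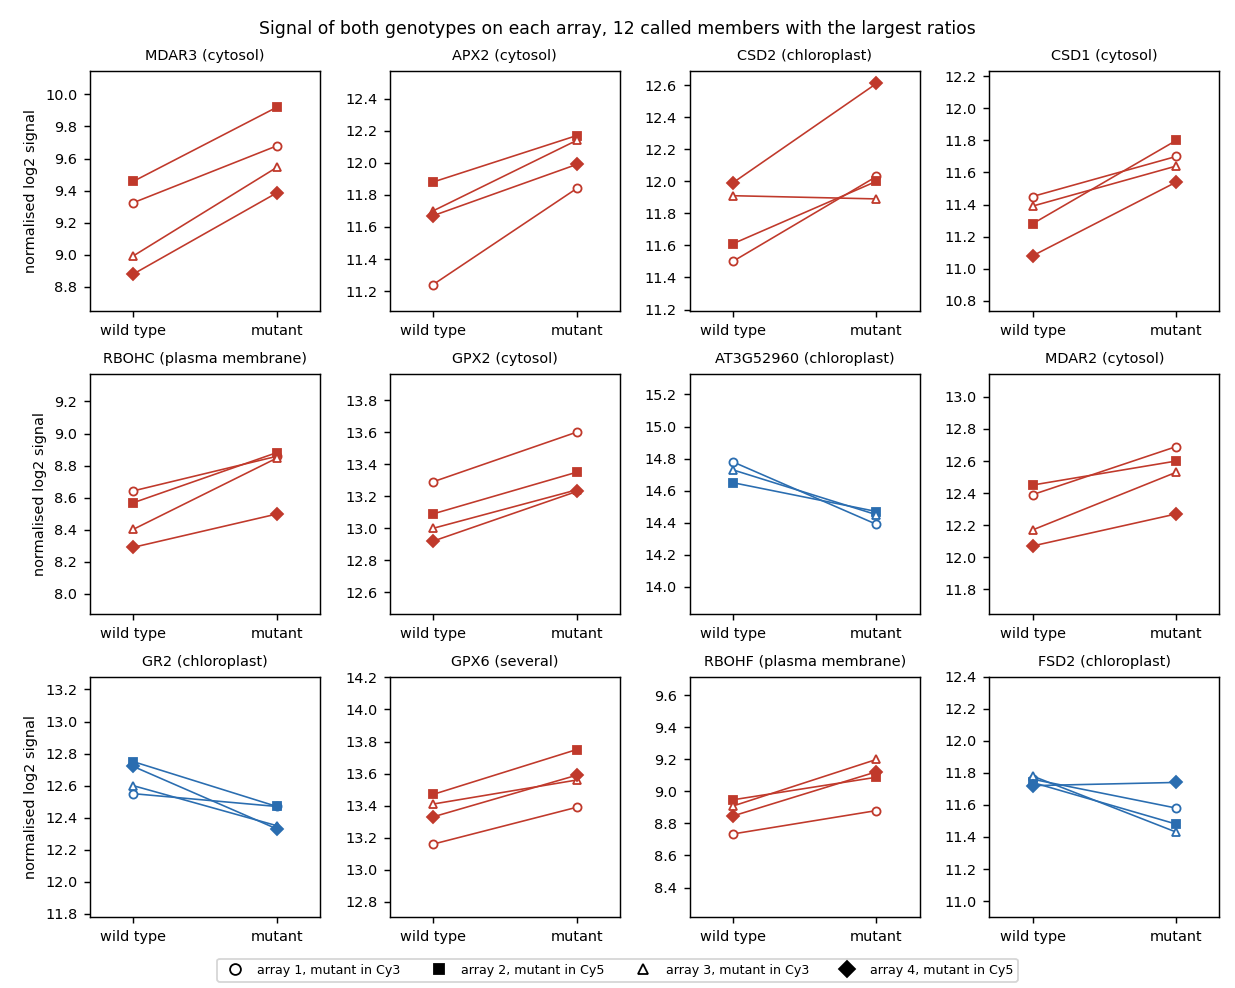
Normalised log2 signal (y axis, each panel spanning the same range of log2 units) of wild type and mutant on each array for the 12 called genes with the largest ratios. Lines join the genotypes of an array, red for higher and blue for lower in the mutant. The lines of CSD2 on array 3 and of FSD2 on array 4 are flat, and those of the other genes all slope one way.

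VTC2 (AT4G26850) and VTC5 (AT5G55120) encode GDP-L-galactose phosphorylases, which catalyse the committed step of ascorbate synthesis. VTC5 had ratios of 0.05, 0.07, 0.09 and 0.07, small but positive on every array, and was not called (0.07, limma adjusted p = 0.14). VTC2, with outlier-marked spots kept, was called at -0.23.

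The NADPH oxidase genes moved apart from each other. RBOHC (AT5G51060), for the root hair oxidase needed for root hair growth, had ratios of 0.22, 0.31, 0.45 and 0.21. All arrays were positive (0.30 ± 0.05, SE, n = 4; limma adjusted p = 0.0033), and the call was kept in all 14 alternatives. It is a dim gene, at 8.29 to 8.88 log2 units over both genotypes, and its ratio was 0.52 in Feature Extraction's processed signals and 0.60 in the deposited series values. The root hair markers EXPA7 (0.52), COBL9 (0.48) and EXPA18 (0.35) were higher in the same RNA, and their part in the RBOHC difference was not tested.

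RBOHF (AT1G64060), whose protein acts in abscisic acid responses and in the lignified ring of the root endodermis, had ratios of 0.15, 0.14, 0.29 and 0.28. These were all positive (0.21 ± 0.04, SE, n = 4; limma adjusted p = 0.00796), and the call ended without array 3 and in 3 other alternatives. The endodermis marker CASP1 was at 0.48 in the same RNA, and its part in the RBOHF difference was not tested. RBOHD (AT5G47910), for the main oxidase of the immune oxidative burst, had ratios of 0.12, -0.15, 0.10 and -0.23. Its sign followed the dye, up with the mutant in Cy3 and down in Cy5, and the fitted -0.04 ± 0.03 (SE, n = 4) was not called (limma adjusted p = 0.37). RBOHC exceeded RBOHD on every array, by 0.34 ± 0.17 (SD, n = 4). RBOHB (AT1G09090), known from seed ripening and germination, was called lower at -0.15 (limma adjusted p = 0.0351), with -0.40 in Feature Extraction's processed signals and 6 of 14 alternatives ending the call. RBOHA (AT5G07390), for a root oxidase, lay at -0.02.

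Further genes of the same pathways were counted from whole lists. Of 26 such genes 24 were tested, 4 were higher (16.67%, against 16.6% of all genes) and 7 were lower (29.17%, against 13.1%), with a median of -0.04. Of the other NADPH oxidases, RBOHH and RBOHJ were not well above background, AT1G19230 was higher (0.19, limma adjusted p = 0.005) and AT4G25090 was lower (-0.20, limma adjusted p = 0.0244). Their calls were lost in 2 and 5 alternatives, in both cases without array 3 (0.17 and -0.14). PER1, a seed peroxiredoxin, had ratios of 0.12, 0.28, 0.68 and 0.90, positive on every array and highest on arrays 3 and 4 (0.49, limma adjusted p = 0.0158). Its call was lost without array 3 (0.35, limma adjusted p = 0.11), without a dye term and in Feature Extraction's processed signals, where the ratio was 1.09. TPX2 (-0.26) and AT1G60740 (-0.21), of the same list, were lower. Both lost the call without array 3, at -0.16 and -0.17, and in 5 and 4 alternatives in all. AT1G60740 had a called dye effect (limma adjusted p = 0.0298) and was at 0.09 on array 4. Among genes for ascorbate and glutathione synthesis, PMI1, for a phosphomannose isomerase, was higher at 0.25 and VTC4, for an L-galactose-1-phosphate phosphatase, at 0.14. Median centring ended the PMI1 call, and 7 of 14 alternatives ended that of VTC4, which was 0.097 without array 3. GME, for GDP-mannose epimerase, was lower at -0.17, and 5 alternatives ended its call, among them those without array 1 or array 3. AT4G33670 was at the threshold (-0.10, limma adjusted p = 0.0498) and lost its call in 13 of 14 alternatives. The glutathione synthesis genes GSH1 and GSH2 were not called.

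Most calls depended on how the arrays were processed. Of the 22 called genes, 5 kept the call in all 14 alternatives, and they were MDAR3, APX2, CSD1, RBOHC and GR2. No called gene changed sign wherever a ratio could be computed. No ratio could be had for AT3G11630 without array 1 or for AT3G52960 without array 2. APX6, MDAR1 and CAT3, with ratios near -0.1, were the least stable and lost the call in 10 alternatives each.

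**Figure D5:**
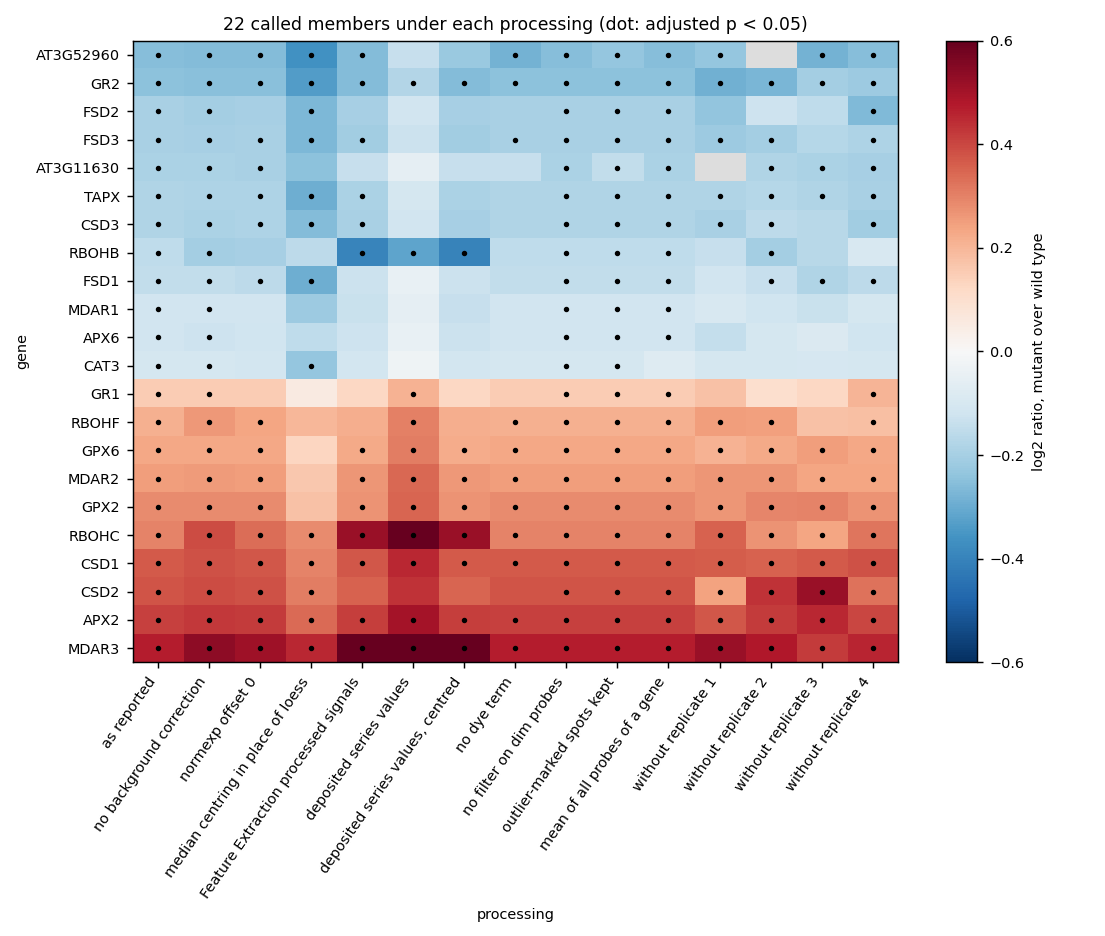
Log2 ratio of the 22 called genes (rows, by ratio) as reported and under each of 14 alternative processings (columns), with colour for the ratio, a dot where the adjusted p was under 0.05 and grey where no ratio could be had. Colours keep their sign along each row, and dots fill the rows of MDAR3, APX2, CSD1, RBOHC and GR2.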

How the data were processed

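The 4 arrays were read with Feature Extraction 9.1.3.1 (Agilent), as the submitters' processing notes say. Spot and local background intensity values were deposited without normalization, per the file headers, as median signals, used in place of the planned mean signals. Feature Extraction's log10 ratios of red over green, per the file headers made from its processed signals, served only to identify the series values. The deposited series values are on a natural log scale, found by comparison with the scanner ratios (correlation 0.987 to 0.999, mutant over wild type). How they were centred is unknown, and their column medians were 0.0458, 0.0813, 0.107 and -0.0011. Feature Extraction's processed signals, also deposited intensity values, served as an alternative.

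Background was corrected with normexp (offset 50, which draws ratios of dim genes towards 0) and ratios were normalised by loess within arrays. Control spots had weight 0, and outlier-marked spots (190 to 399 of 37685) were left out. Between 58.7% and 60.9% of spots were well above background, 0 were saturated, and the number of arrays limits the precision. One probe per gene was kept, the brightest of those well above background on all arrays of a genotype with at least 3 ratios. Limma 3.58.1 (R 4.3.3) fitted genotype and a gene-wise dye effect, with Benjamini-Hochberg adjustment over 19314 genes, two-sided. The procedure was tested on simulated data. Alternatives changed the background correction, normalisation, values used, dye term, filters, probe choice and arrays included.

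Symbols came from the RefSeq table of TAIR10.1, which held all 49 loci, and loci without one keep their identifier. Compartments were assigned from general knowledge, and some proteins work in more than one. The genes and lists were chosen with earlier results of these data known. Full values are given for the 12 called genes with the largest ratios and for APX2, APX1, CAT2, RBOHD, CSD1, CSD2 and CCS, and for up to 3 called genes in each direction of the other lists.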

Additional observations from a re-analysis of the deposited data

Results flagged for a closer look

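APX5, for a peroxisomal ascorbate peroxidase, had 1 array apart from the others. Its ratio was 0.11 on array 4 and between -0.01 and 0.01 on the other three, and the gap took 0.846 of the range, above Dixon's critical value. It was the only one of 42 genes tested in this way, and chance gives such a gap in about 1 of 20 groups.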

How the results depend on the processing

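The number of genes called over the whole array was 5747 as reported, 2547 with median centring, 3616 in the centred series values, 1826 without a dye term and 2254 to 5893 when 1 array was left out. At offset 0 it was 4766, in Feature Extraction's processed signals 5067 and in the series values as deposited 5980. The share of calls that were higher was 55.8% as reported, 45.5% with median centring, 79.9% in the series values as deposited, 68.0% without a dye term and 62.6% and 65.6% without arrays 1 and 3. In processed signals this share was 50.5%. Genes of the list called higher fell from 10 to 5 with median centring, and cytosolic ones from 6 to 3. Genes called lower fell from 12 to 7 at offset 0, 6 in Feature Extraction's processed signals, 4 in the series values as deposited or centred, 3 without a dye term and 5 to 8 with 1 array left out. Chloroplast genes called lower were 7 as reported, 4 in processed signals, 2 in the series values as deposited, 2 once centred, 3 without a dye term and 4 to 7 without 1 array. Other pathway genes called higher were 4 as reported, 1 with median centring, 2 in processed signals, 2 without a dye term and 1 to 5 without 1 array. Those called lower were 7 as reported, 4 in processed signals, 2 in the series values, 3 once centred, 2 without a dye term and 2 to 6 without 1 array. Median centring and the uncentred series values moved the median of all genes to -0.04 and 0.07. With them the median of the list was -0.094 and 0.049, of chloroplast genes -0.20 and -0.022, of cytosolic genes 0.015 and 0.14, of peroxisomal genes -0.22 and -0.027, and of other pathway genes -0.12 and 0.055. The median of the list ran from -0.051 to 0.0073 with 1 array left out, and that of chloroplast genes was -0.12 with outlier-marked spots kept. The cause of these changes was not tested. All arrays came from 1 slide and 1 scan, so slide and scan as a block could not be run. The genotypes are paired within each array, so every fit of the ratios is already paired.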
